A study of Mus musculus with 8 samples.

Results

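Cholesterol is built from acetyl units through mevalonate, isoprenoid diphosphates, squalene and lanosterol, and the genes of this route are induced together by the transcription factor SREBP2 when membranes run short of sterol. In skin, sterols made in the epidermis and the sebaceous gland go into membranes and into the lipids of the water barrier. The 9 enzymes followed here span the route: Hmgcs1, Idi1 and Fdps lead to farnesyl diphosphate, Fdft1, Sqle and Lss make squalene and close it to lanosterol, and Cyp51, Nsdhl and Dhcr7 turn lanosterol into cholesterol. The members are all probe sets whose single gene symbol in the platform annotation is one of these 9 names, which gave 21 of the 22690 probe sets on the array, for 9 of 12393 genes.

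On GRCm38.p6 in RefSeq, Hmgcs1 lies at chr13:119690351-119708260, Idi1 at chr13:8885606-8892396 and Fdps at chr3:89093588-89101967. Fdft1 lies at chr14:63145150-63181687, Sqle at chr15:59315092-59331193 and Lss at chr10:76531565-76557139. Cyp51 lies at chr5:4080674-4104697, Nsdhl at chrX:72918521-72958528 and Dhcr7 at chr7:143823167-143848410.

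The tissue was the skin of newborn FVB mice, taken whole and hybridized to Affymetrix arrays. Each of 4 genotypes had 2 arrays, and each array carried the pooled RNA of 3 animals. The genotype labelled pRb+/+ is called control below, pRb-/-;p107+/+ is called pRb-null, pRb+/+;p107-/- is called p107-null and pRb-/-;p107-/- is called double-null. The labels do not state the p107 alleles of the control, which is taken here as carrying p107. pRb, the product of Rb1, and p107, the product of Rbl1, are pocket proteins that hold E2F factors in check and so slow the G1 to S transition. The sources used here do not say which skin cells carry the deletions, and whole skin mixes epidermis, hair follicles, dermis, fat and muscle. The deposited values are z-scores: each probe set has mean 0 and SD 1 over the 8 arrays. A value of 1 therefore lies 1 SD of that probe set above its own mean, and no expression level, fold change or comparison of levels between genes can be read from it. Differences are given in SD units ± the standard error of a limma linear model fitted to all 22626 non-control probe sets, with Benjamini-Hochberg adjustment of p-values across that whole set and a threshold of 0.05. Nothing in the labels says that the 2 arrays of a genotype are separate pools, so p-values measure only the spread between these arrays. In bulk skin, fewer cells of a type and less RNA per cell cannot be told apart.

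The targeted genes gave a limited check of the labels. The Rb1 z-scores were 1.21 and 1.07 in control, 0.02 and 0.40 in p107-null, -0.22 and 0.36 in pRb-null and -1.56 and -1.28 in double-null skin. Within each p107 background the pRb-/- arrays were lower in Rb1 without overlap, although the pRb-null and p107-null arrays, which differ in both genes, overlapped. Rbl1 by probe set 1424156_at was lowest on the p107-null arrays, at -1.51 and -1.22, but lay at -0.31 and 0.31 on the double-null arrays against 0.08 and 0.21 on the control arrays. By the other Rbl1 probe set, 1425166_at, all 4 p107-/- arrays (-1.53 to -0.13) lay below all 4 arrays with p107 (-0.02 to 1.40). Whether these probes lie inside the deleted parts is not known here, so they may check nothing. Array-wide values also differed by genotype. The 24 poly-A control probe sets averaged from 0.19 to 1.38 on the 4 arrays with p107 and from -0.96 to -0.55 on the 4 p107-/- arrays, and the 3 beta-actin controls were highest on the pRb-null arrays (1.21 and 1.41) and lowest on the double-null arrays (-1.0 and -1.08). The 18 hybridization controls averaged from -0.03 to 2.05 on the arrays with p107, the highest being a control array, and from -0.80 to -0.32 on the p107-/- arrays. The 3 Gapdh controls were lowest on the control arrays (-1.47 and -1.52) and about as high on p107-null replicate 1 (0.80) as on the pRb-null arrays (0.84 and 0.77). The part of these shifts in the results below was not tested. The 2 pRb-null arrays correlated across probe sets with r = 0.0365, against 0.173 to 0.35 for the replicates of the other genotypes.

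Upstream sequence is shown for 3 members that turn out to have different patterns over the genotypes: Hmgcs1, the enzyme gene with the clearest difference, Idi1, which shared its split by p107 status in 1 of 2 probe sets, and Nsdhl, which did not. RefSeq promoter entries on build GRCm38.p6 were matched for 6 of the 9 genes (Hmgcs1, Idi1, Lss, Cyp51, Nsdhl and Dhcr7). The 250 bases before the annotated start are given 5′ to 3′ on the gene's strand, which is the plus strand for all 3, with matches to a sterol regulatory element (TCACNCCAC, the type of site that SREBP2 binds) and to the CCAAT box (bound by NF-Y, a partner of SREBP2) in capitals. ATTGG is the CCAAT box on the opposite strand. The Hmgcs1 window is chr13:119690101-119690350, the Idi1 window chr13:8885356-8885605 and the Nsdhl window chrX:72918271-72918520.
Hmgcs1: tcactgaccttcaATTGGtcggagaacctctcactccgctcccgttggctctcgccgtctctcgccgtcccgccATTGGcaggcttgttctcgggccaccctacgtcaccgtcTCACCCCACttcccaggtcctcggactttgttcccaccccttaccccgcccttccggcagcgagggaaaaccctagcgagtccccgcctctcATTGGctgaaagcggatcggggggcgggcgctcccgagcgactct
Idi1: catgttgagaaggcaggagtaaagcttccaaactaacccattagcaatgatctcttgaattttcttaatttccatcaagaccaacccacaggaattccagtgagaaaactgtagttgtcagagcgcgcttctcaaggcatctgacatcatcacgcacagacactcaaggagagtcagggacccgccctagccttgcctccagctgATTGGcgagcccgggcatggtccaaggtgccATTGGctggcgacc
Nsdhl: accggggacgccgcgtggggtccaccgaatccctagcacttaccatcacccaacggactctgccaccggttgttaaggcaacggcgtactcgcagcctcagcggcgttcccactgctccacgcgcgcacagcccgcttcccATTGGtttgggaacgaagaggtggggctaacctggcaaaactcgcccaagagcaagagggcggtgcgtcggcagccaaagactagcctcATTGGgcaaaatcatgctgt

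Hmgcs1 held 1 sterol regulatory element, 137 bases before its start, and 3 CCAAT boxes, and none of its matches overlapped another. Over all 32851 promoter windows of the same length, searched on both strands, 1.05% held the element and 33.8% a CCAAT box. Idi1 and Nsdhl held 2 CCAAT boxes each and no match to the element. Lss and Cyp51 held 1 CCAAT box each, and of the 3 annotated starts of Dhcr7 only the one with window chr7:143829964-143830213 held any, with 2. No member window matched the E2F site letters TTTCCCGC or TTTGGCGC, which were present in 0.895% and 0.417% of all windows. These matches describe the letters in the window and do not show binding.

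Hmgcs1 makes HMG-CoA, an early intermediate on the way to mevalonate. It was the only 1 of the 9 genes with a probe set past the threshold in any of the 8 comparisons made, and it was lower on p107-/- arrays. By probe set 1433443_a_at its z-scores were 0.78 and 1.13 in control, 0.68 and 1.08 in pRb-null, -1.01 and -1.01 in p107-null and -0.62 and -1.03 in double-null skin. All 4 arrays with p107 were high and all 4 p107-/- arrays low, and within each p107 status the pRb genotypes overlapped. It fell with loss of p107 averaged over pRb status by 1.84 ± 0.17 (SE, limma linear model, adjusted p = 0.0321), a comparison in which 3.04% of all probe sets passed. That call was lost with the moderated test (adjusted p = 0.106), with the replicate number as a block (adjusted p = 0.0996) and without any 1 of the 8 arrays (adjusted p from 0.0785 to 0.156), while the difference stayed between -1.94 and -1.73 without any array. Without double-null replicate 1 or 2 the model called 0 probe sets in this comparison. The poly-A and hybridization controls split the arrays by p107 status in the same direction, so their shift and loss of p107 cannot be told apart. Markers of several cell types also differed in this comparison. Of 14 hair follicle markers 12 were negative and 9 fell, of 7 sebocyte markers all 7 were negative and 3 fell, and of 10 adipocyte markers 9 were negative and 3 fell. All 8 spinous and granular keratinocyte markers were positive and 3 rose, and of 8 mast cell markers 7 were positive, 4 rose and 1 fell. Their part in the Hmgcs1 difference was not tested.

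The 3 other Hmgcs1 probe sets, none of which passed, give the same order in part. By 1433444_at the arrays read 1.48 and 0.34 in control, 0.22 and 0.99 in pRb-null, -0.32 and -0.50 in p107-null and -0.46 and -1.76 in double-null skin, again with no overlap between p107 states (difference -1.52 ± 0.48, adjusted p = 0.167). By 1433445_x_at they read 0.16 and 1.52, 0.76 and 0.78, -0.47 and -0.43, and -0.75 and -1.58 in the same order of genotypes, also without overlap (-1.61 ± 0.40, adjusted p = 0.121). By 1433446_at they read -0.72 and -0.19, 0.93 and 1.81, 0.15 and -0.37, and -0.16 and -1.46. This probe set was high on the pRb-null arrays only and overlapped between p107 states (-0.92 ± 0.43, adjusted p = 0.287). The 4 probe sets correlated with each other over the 8 arrays with r from 0.52 to 0.887, the closest agreement of any member gene.

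Taken apart by pRb status, the Hmgcs1 probe set 1433443_a_at differed by -1.96 ± 0.24 in pRb+/+ skin (adjusted p = 0.0753) and by -1.71 ± 0.24 in pRb-/- skin (adjusted p = 0.0741), neither past the threshold. The test of the difference between these effects, the interaction, gave 0.26 ± 0.34 (95% interval -0.68 to 1.19, adjusted p = 0.802). Its difference between double-null and control skin was -1.78 ± 0.24 (adjusted p = 0.0527). For pRb loss the values were -0.07 ± 0.24 where p107 was kept (95% interval -0.73 to 0.59) and 0.18 ± 0.24 in p107-/- skin (95% interval -0.48 to 0.84), and both intervals exclude a shift of over 1 SD unit for this probe set.

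**Figure D1:**
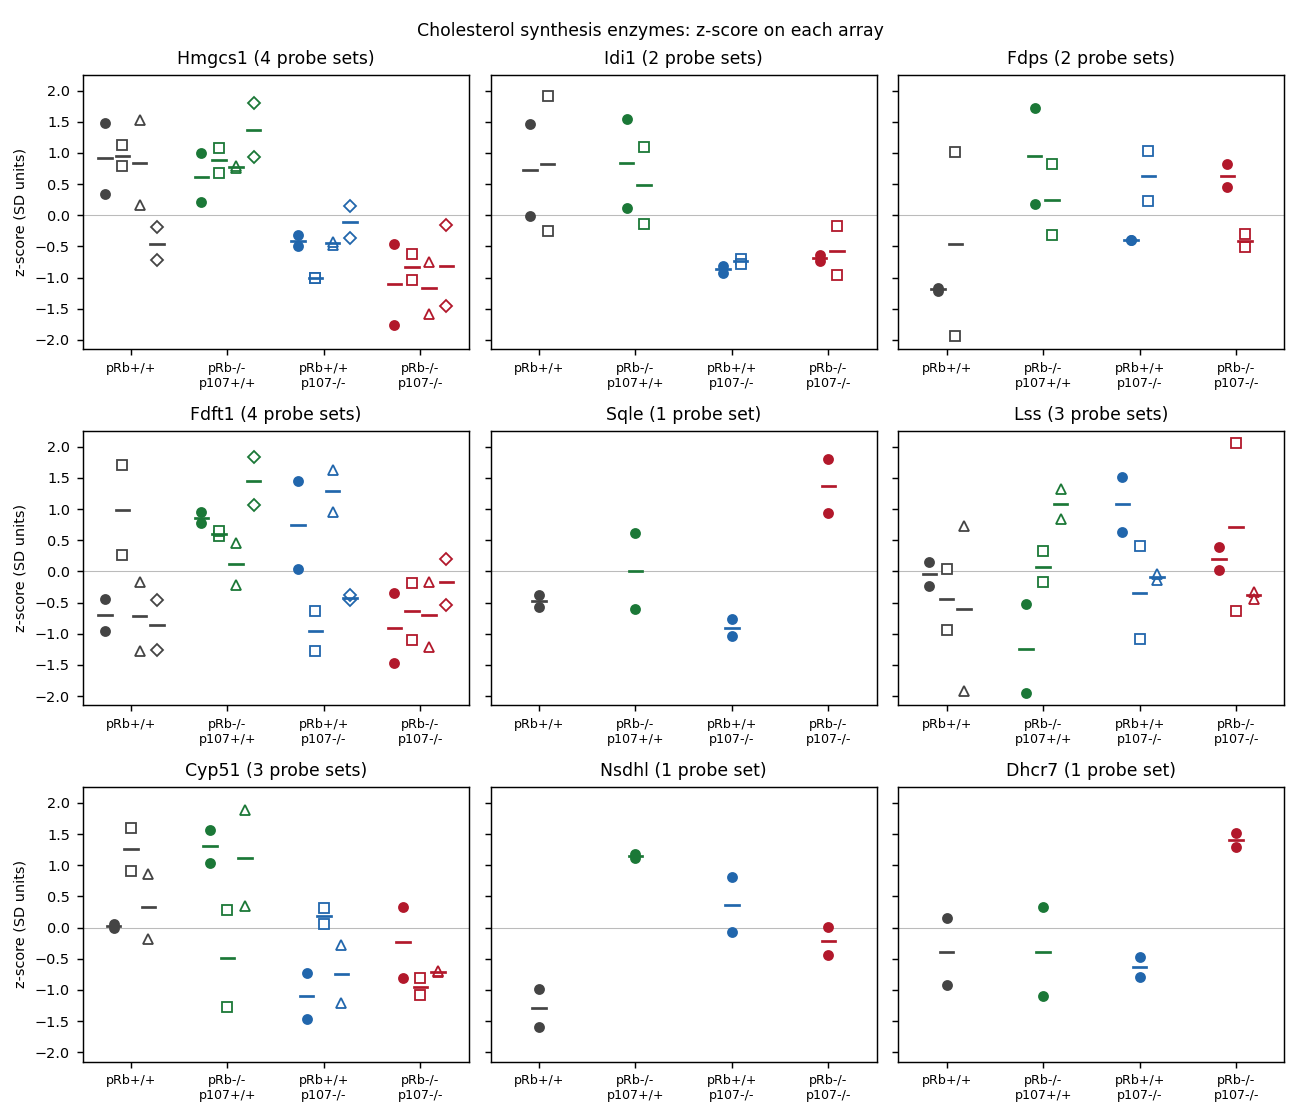
z-score (SD units, vertical axis) of every probe set of the 9 enzymes on each of the 8 arrays, by genotype. Points are arrays, bars are genotype means, filled circles are the probe set that stands for the gene and open symbols its other probe sets. For 3 of the 4 Hmgcs1 probe sets all p107-/- arrays lie below all arrays with p107, whereas Sqle and Dhcr7 are highest in pRb-/-;p107-/- skin.

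Idi1, which isomerizes isopentenyl diphosphate, shared the split of Hmgcs1 by p107 status in 1 of its 2 probe sets, without passing. By 1451122_at its z-scores were -0.0054 and 1.46 in control, 1.55 and 0.11 in pRb-null, -0.81 and -0.93 in p107-null and -0.73 and -0.65 in double-null skin. The p107-/- arrays were all lower and tightly grouped, while the replicates with p107 lay more than 1 unit apart (difference -1.56 ± 0.51 averaged over pRb status, adjusted p = 0.18). By 1423804_a_at the values were 1.91 and -0.25, 1.10 and -0.14, -0.70 and -0.78, and -0.97 and -0.17 in that order of genotypes, and here the arrays overlapped (-1.31 ± 0.66, adjusted p = 0.308). The 2 Idi1 probe sets correlated with r = 0.487 over the 8 arrays.

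Fdps, the farnesyl diphosphate synthase gene, followed pRb rather than p107 in 1 of its 2 probe sets. By 1423418_at it read -1.21 and -1.17 in control, -0.39 and -0.39 in p107-null, 0.45 and 0.82 in double-null and 0.17 and 1.72 in pRb-null skin. All 4 pRb-/- arrays were above all 4 pRb+/+ arrays, the only member probe set of which that was true, against 1.97% of all probe sets. The difference for pRb loss averaged over p107 status was 1.58 ± 0.40 (adjusted p = 0.268, where 0.181% of all probe sets passed). The other probe set, 1438150_at, did not share this: its control replicates alone spanned -1.94 to 1.01, and the same difference was -0.16 ± 0.82.

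Fdft1, which encodes squalene synthase, had 4 probe sets that ordered the genotypes in 4 different ways. By 1448130_at the z-scores were -1.26 and -0.45 in control, 1.84 and 1.06 in pRb-null, -0.47 and -0.38 in p107-null and 0.20 and -0.54 in double-null skin, so the pRb-null arrays stood alone at the top. For pRb loss where p107 was kept it differed by 2.31 ± 0.47 (adjusted p = 0.214) and for p107 loss in pRb-/- skin by -1.62 ± 0.47 (adjusted p = 0.201). By 1438322_x_at, in contrast, the arrays with p107 lay from 0.26 to 1.71 and the p107-/- arrays from -1.28 to -0.18, the same split as in Hmgcs1 (-1.59 ± 0.46 averaged over pRb status, adjusted p = 0.149). By 1438919_x_at the p107-null arrays were highest, at 0.96 and 1.63. By 1438918_at the p107-null arrays (1.45 and 0.03) and the pRb-null arrays (0.77 and 0.96) both lay above the rest. The correlations among these 4 probe sets over the 8 arrays ran from -0.399 to 0.496.

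Sqle, the squalene epoxidase gene and a control point of the route downstream of mevalonate, went another way. Its only probe set read -0.38 and -0.57 in control, -0.60 and 0.61 in pRb-null, -1.04 and -0.76 in p107-null and 1.81 and 0.93 in double-null skin. The double-null arrays were above all others, and the p107-null arrays below all others. It differed by 2.27 ± 0.54 for pRb loss in p107-/- skin (adjusted p = 0.265), by 1.84 ± 0.54 for loss of both (adjusted p = 0.168) and by 1.36 ± 0.54 for p107 loss in pRb-/- skin (adjusted p = 0.293), none past the threshold.

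Lss, which encodes the lanosterol synthase, gave no common picture. By 1420014_at the z-scores were lowest in pRb-null skin (-1.95 and -0.53) and highest in p107-null skin (1.51 and 0.63), with -0.23 and 0.15 in control and 0.02 and 0.39 in double-null skin. By 1426913_at the pRb-null arrays were instead the highest, at 1.32 and 0.84, and the control arrays spread from -1.92 to 0.73. By 1420013_s_at the 2 double-null arrays alone read 2.06 and -0.63, and every genotype overlapped its neighbours. The probe sets 1420014_at and 1426913_at correlated with r = -0.556, the most opposed pair of any member gene.

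Cyp51, the lanosterol demethylase gene, was highest in pRb-null skin in 2 of its 3 probe sets. By 1422533_at it read 0.062 and -0.00026 in control, 1.03 and 1.57 in pRb-null, -1.47 and -0.74 in p107-null and -0.81 and 0.34 in double-null skin. It differed by -1.33 ± 0.37 for p107 loss averaged over pRb status (adjusted p = 0.139). By 1450646_at all 4 arrays with p107 (-0.18 to 1.89) were above all 4 p107-/- arrays (-1.21 to -0.28), with a difference of -1.45 ± 0.52 (adjusted p = 0.2). By 1422534_at the control arrays were highest, at 0.91 and 1.60, and the difference for loss of both was -2.20 ± 0.61 (adjusted p = 0.157).

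Nsdhl, which encodes a sterol dehydrogenase that helps remove the methyl groups of lanosterol, had the largest difference of any member probe set for pRb loss where p107 was kept. It read -0.98 and -1.60 in control, 1.17 and 1.11 in pRb-null, 0.81 and -0.07 in p107-null and -0.45 and 0.003 in double-null skin. The control arrays were below all others and the pRb-null arrays above all others, while the p107-/- genotypes overlapped. With p107 kept, pRb loss gave 2.44 ± 0.41 (adjusted p = 0.173), and without p107 it gave -0.59 ± 0.41 (adjusted p = 0.686). The interaction was -3.03 ± 0.58 (adjusted p = 0.202), and no probe set on the array passed for the interaction (limma linear model, 0 of 22626, with 2964 at an unadjusted p under 0.05, and 0 by the moderated test).

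Dhcr7, the enzyme gene of the last step to cholesterol, resembled Sqle. Its z-scores were -0.93 and 0.16 in control, 0.33 and -1.10 in pRb-null, -0.47 and -0.79 in p107-null and 1.29 and 1.51 in double-null skin. The double-null arrays stood above the other 6, which overlapped. The difference was 2.03 ± 0.65 for pRb loss in p107-/- skin (adjusted p = 0.366) and 1.79 ± 0.65 for p107 loss in pRb-/- skin (adjusted p = 0.263). For pRb loss where p107 was kept its 95% interval ran from -1.80 to 1.80, which leaves shifts of over 1 unit either way possible.

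Counted over the 21 probe sets, the members were mostly lower where p107 was lost from pRb-/- skin. For p107 loss in pRb-/- skin 4 of 21 had a positive difference, against 47.3% of all probe sets, and 17 a negative one, with a median of -1.37 against -0.10 over all probe sets. In 13 of them (61.9%) both double-null arrays lay below both pRb-null arrays, as did 28.2% of all probe sets, and in 3 (14.3%) both lay above, as did 22.9%. Those 3 were Sqle, Dhcr7 and Lss 1420014_at. By gene, all probe sets were negative for 6 of the 9 (Hmgcs1, Idi1, Fdps, Fdft1, Cyp51 and Nsdhl) and positive for Sqle and Dhcr7, with Lss mixed. None of the 21 passed (limma, smallest adjusted p = 0.0741, with 1.37% of all probe sets past the threshold), and 6 were lower at an unadjusted p under 0.05, as were 11.4% of all probe sets.

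For p107 loss in pRb+/+ skin the members divided more evenly. Here 10 of 21 were positive, against 58.8% of all probe sets, and 11 negative, with a median of -0.25 against 0.35 over all probe sets, and 10 (47.6%) had both p107-null arrays below both control arrays, as did 22.1% of all probe sets. All Idi1 and Cyp51 probe sets were among these 10, with 3 of Hmgcs1. Another 5 lay wholly above, against 35.2% of all probe sets, including Nsdhl with a difference of 1.66 ± 0.41 (adjusted p = 0.167). None passed (0.42% of all probe sets did). Averaged over pRb status, 6 of 21 (28.6%) had all 4 p107-/- arrays below the other 4, against 8.23% of all probe sets, and 0 had them all above, against 7.51%. The 6 came from 4 genes: 3 of Hmgcs1, and 1 each of Idi1, Fdft1 and Cyp51. Probe sets of 1 gene are not independent, and Hmgcs1 gives 3 of the 6. In the same average 8 of 21 probe sets were positive, against 54.9% of all. By 1 probe set per gene, 5 of the 9 genes were positive, with a median of 0.15 against 0.22 over all genes. All probe sets were positive for 4 genes and negative for 3, with 2 mixed. As a set, the 9 genes were therefore not lower in that average.

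**Figure D2:**
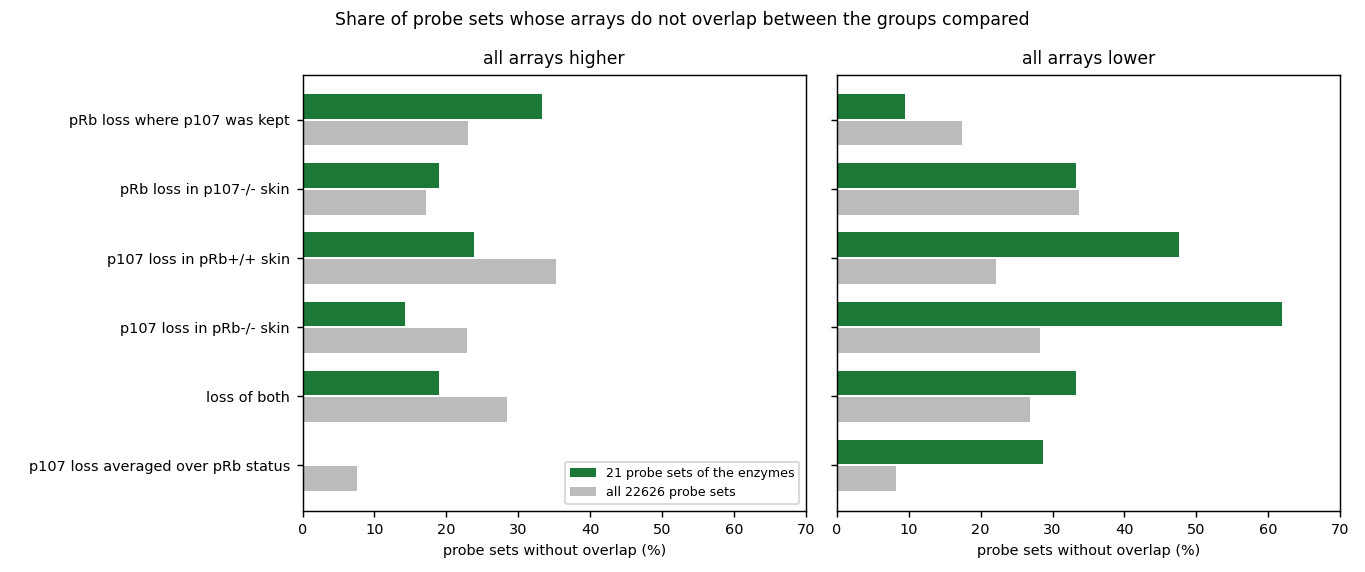
Share of probe sets (%, horizontal axis) whose arrays do not overlap between the groups compared, with all arrays higher (left) or lower (right) in the group without the named protein. Green bars are the 21 probe sets of the enzymes and grey bars all 22626. The widest gap is for p107 loss in pRb-/- skin, where 61.9% of the enzyme probe sets and 28.2% of all were lower.

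For pRb loss in each p107 background the shares without overlap were nearer those of all probe sets. Where p107 was kept, 13 of 21 were positive, against 53.7% of all, with a median of 0.53 against 0.12 over all probe sets, 7 (33.3%) had both pRb-null arrays above both control arrays against 23% of all, and 2 (9.52%) lay wholly below against 17.4%. In this comparison 4 were higher at an unadjusted p under 0.05 (Nsdhl, Fdps 1423418_at, Fdft1 1448130_at and Hmgcs1 1433446_at), as were 8.24% of all. Another 1, Cyp51 1422534_at, was lower at that level (-1.75 ± 0.61), as were 5.13% of all. None passed, in a comparison where 0% of all probe sets did. In p107-/- skin 11 of 21 were positive, against 37.4% of all, with a median of 0.04 against -0.33. Without double-null replicate 1 that count was 7 of 21, and with the mean of all probe sets of a gene 3 of the 9 enzymes were positive, against 5 by 1 probe set each. There 7 (33.3%) lay wholly lower against 33.7% of all and 4 (19%) wholly higher against 17.2%, both near the background, and none passed where 0.256% of all did. For pRb loss averaged over p107 status, 12 of 21 were positive, against 46.2% of all, with a median of 0.14 against -0.08. By 1 probe set per gene 6 of the 9 were positive, with a median of 0.92 against -0.10 over all genes. At an unadjusted p under 0.05, 5 probe sets were higher, as were 6.51% of all, and 1 was lower, as were 6.66%. None of the 21 passed in that average, where 0.181% of all did. Between double-null and control skin 10 were positive, against 52.3% of all, and 11 negative, 7 (33.3%) lay wholly lower against 26.9% and 4 (19%) wholly higher against 28.5%. None passed there, where 2.94% of all probe sets did, and none passed the F test among the 4 genotypes, which 1.28% of all passed. These comparisons share arrays: those of pRb-null skin enter both p107 loss in pRb-/- skin and pRb loss where p107 was kept, with opposite sign.

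That genotype was the highest of the 4 in 9 of the 21 probe sets (42.9%, against 23.7% of all probe sets) and the lowest in 1 (4.76%, against 22.9%). The p107-null genotype was the lowest in 8 (38.1%, against 14.5%). Averaged over 1 probe set per gene, the 9 enzymes had mean z-scores of -0.29 and -0.24 on the control arrays, 0.47 and 0.43 on the pRb-null arrays, -0.08 and -0.39 on the p107-null arrays and 0.13 and -0.03 on the double-null arrays. The pRb-null arrays were highest on average, the 4 p107-/- arrays lay within the range of the other 4 except the lowest of them, and the beta-actin and poly-A controls, though not the hybridization controls, were highest on the same arrays. The part of that in the enzyme values was not tested.

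**Figure D3:**
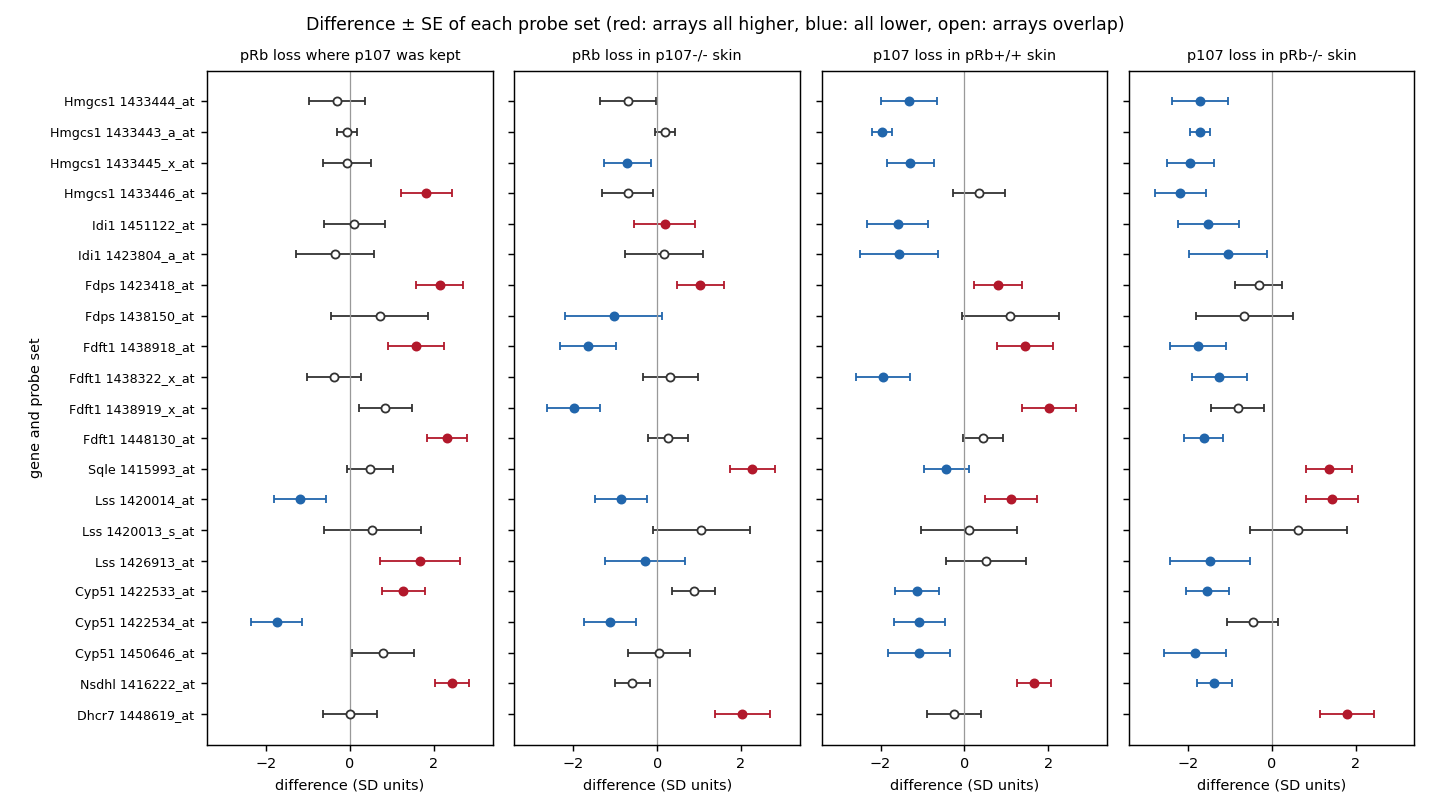
Difference in z-score (SD units, horizontal axis) with its standard error for each of the 21 probe sets (rows) in the 4 comparisons of single losses. Red points have all arrays higher, blue points all lower and open points overlap. In the panel for p107 loss in pRb-/- skin 17 of 21 lie left of 0, with Sqle and Dhcr7 to the right.

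Correlations between the enzymes over the 8 arrays were of either sign. Among the 36 pairs of the 9 genes, each by 1 probe set, r ran from -0.776 (Lss and Cyp51) to 0.752 (Fdft1 and Nsdhl) with a median of -0.05, and 14 were positive. These values describe 8 arrays that share 4 genotypes and depend on the probe set chosen. Within genes, the 20 pairs of probe sets for 1 enzyme had a median r of 0.353 and 15 (75%) were positive. Over all 4956 genes with several probe sets the median was 0.189 and 63.2% of 12821 pairs were positive. The genes outside the 9 whose probe set most resembled their mean over the 8 arrays were Cmya5 (r = 0.966), Ighv14-2 (0.932), Cacng1 (0.921), Stk24 (0.918) and Nup155 (0.917), and those most opposed were Sfrp2 (-0.953), Fam169a (-0.934) and Slc12a7 (-0.934). Of the members themselves, Fdps (0.797), Nsdhl (0.715) and Cyp51 (0.639) followed their common mean most closely, Hmgcs1 hardly did (0.10) and Lss went against it (-0.66). Each member is itself part of that mean, which raises its r.

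Other enzymes of the same route were more one-sided than the 9 for pRb loss where p107 was kept. By 1 probe set each, 6 of the 9 were positive there, with a median of 0.48. For p107 loss in pRb-/- skin 3 of the 9 were positive, with a median of -1.37. Of the 10 other enzymes measured by a probe set with 1 symbol, 9 had a positive difference for pRb loss where p107 was kept (median 1.05, against 0.10 over all genes). For p107 loss in pRb-/- skin 8 had a negative one (median -0.86, against -0.05), but none of the 10 passed in any comparison. Msmo1, which acts with Nsdhl in demethylation, read -0.21 and 0.30 in control, 1.43 and 1.32 in pRb-null, -0.62 and -1.44 in p107-null and -0.0016 and -0.78 in double-null skin, with both pRb-null arrays above the rest. Its difference for p107 loss in pRb-/- skin was -1.77 ± 0.44 (adjusted p = 0.161), and that of the sterol reductase gene Tm7sf2 was -2.18 ± 0.64 (adjusted p = 0.203). The largest positive differences in that comparison were small, 0.36 ± 0.68 for Hsd17b7 and 0.15 ± 1.01 for Lbr.

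Genes that sense or import sterol split as well. Of 8 measured, 3 were positive for pRb loss where p107 was kept (median -0.27) and 5 for p107 loss in pRb-/- skin (median 0.24), and none passed. Srebf2, which encodes SREBP2, differed by 0.67 ± 1.19 for p107 loss in pRb-/- skin and its partner gene Scap by 0.47 ± 0.84. In both comparisons Npc1, a lysosomal sterol exporter, had the largest difference of the group. It was 2.08 ± 0.54 for pRb loss where p107 was kept (adjusted p = 0.273) and -1.72 ± 0.54 for p107 loss in pRb-/- skin (adjusted p = 0.22). Npc2, its partner in that export, differed by -1.23 ± 0.49 there, and the largest positive differences were those of the sterol carrier gene Stard4 (0.99 ± 0.75) and of Insig2 (0.70 ± 0.68), whose product retains SCAP in the endoplasmic reticulum. Of 8 genes of sterol efflux and esterification, 5 were positive in that last comparison (median 0.45) and none passed. The sterol exporter gene Abcg1 (2.18 ± 0.38, adjusted p = 0.101) and Mylip (1.71 ± 0.69, adjusted p = 0.296), which directs breakdown of the LDL receptor, were highest there. Nr1h3, which encodes the sterol sensor LXRα (-1.81 ± 0.69, adjusted p = 0.279), and the hydroxylase gene Ch25h (-1.77 ± 0.82, adjusted p = 0.35) were lowest.

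Fatty acid synthesis, the other arm of SREBP-driven lipid supply, did contain genes past the threshold. Of its 15 genes 12 were negative for p107 loss in pRb-/- skin, with a median of -1.90 against -0.05 over all genes, and 2 fell: the desaturase gene Scd1 by 2.41 ± 0.06 (adjusted p = 0.0135) and the elongase gene Elovl6 by 2.20 ± 0.12 (adjusted p = 0.0228). Scd1 also fell in p107-null against control skin, by 0.89 ± 0.06 (adjusted p = 0.0446), and for pRb loss in p107-/- skin, by 1.20 ± 0.06 (adjusted p = 0.0332). For loss of both, Scd1 fell by 2.09 ± 0.06 (adjusted p = 0.00889) and Elovl6 by 1.92 ± 0.12 (adjusted p = 0.0181). Scd1 read 0.71 and 0.62 in control, 1.04 and 0.94 in pRb-null, -0.19 and -0.27 in p107-null and -1.40 and -1.44 in double-null skin, with no overlap between any genotypes. By the moderated test none of these passed. Of all probe sets, 1.37% passed for p107 loss in pRb-/- skin and 0.42% for p107 loss in pRb+/+ skin. The shares were 0.256% for pRb loss in p107-/- skin and 2.94% for loss of both. On the double-null arrays the fatty acid list averaged -0.82 and -0.86, and the 9 enzymes averaged 0.13 and -0.03.

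Markers of many cell types, not only lipid-rich ones, differed for p107 loss in pRb-/- skin. Of 10 adipocyte markers 9 were negative for p107 loss in pRb-/- skin (median -2.23) and 3 fell (Adipoq, Cidea and Pck1), and the list averaged 0.84 and 0.93 on the pRb-null arrays against -0.61 and -1.07 on the double-null arrays. Of 7 sebocyte markers all 7 were negative (median -1.94) and 1 fell, Cidea, which both lists hold. The sebocyte list averaged 0.90 and 0.74 against -1.02 and -0.75. Of 9 skeletal muscle markers 7 were negative (median -1.77, none passed), whereas all 8 spinous and granular keratinocyte markers were positive (median 1.78) and 2 rose (Krtdap and Calm4). Of 14 hair follicle markers 13 were negative (median -1.50) and 3 fell, all 7 fibroblast markers were negative (median -1.26, none passed), and of 8 mast cell markers 7 were positive (median 1.79), 3 rose and 1 fell. These calls stand against 1.37% of all probe sets past the threshold, and no probe set was called in this comparison by the moderated test or without pRb-null replicate 1 or 2. The part of cell make-up in the enzyme differences was not tested, and z-scores do not show which markers are near background.

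**Figure D4:**
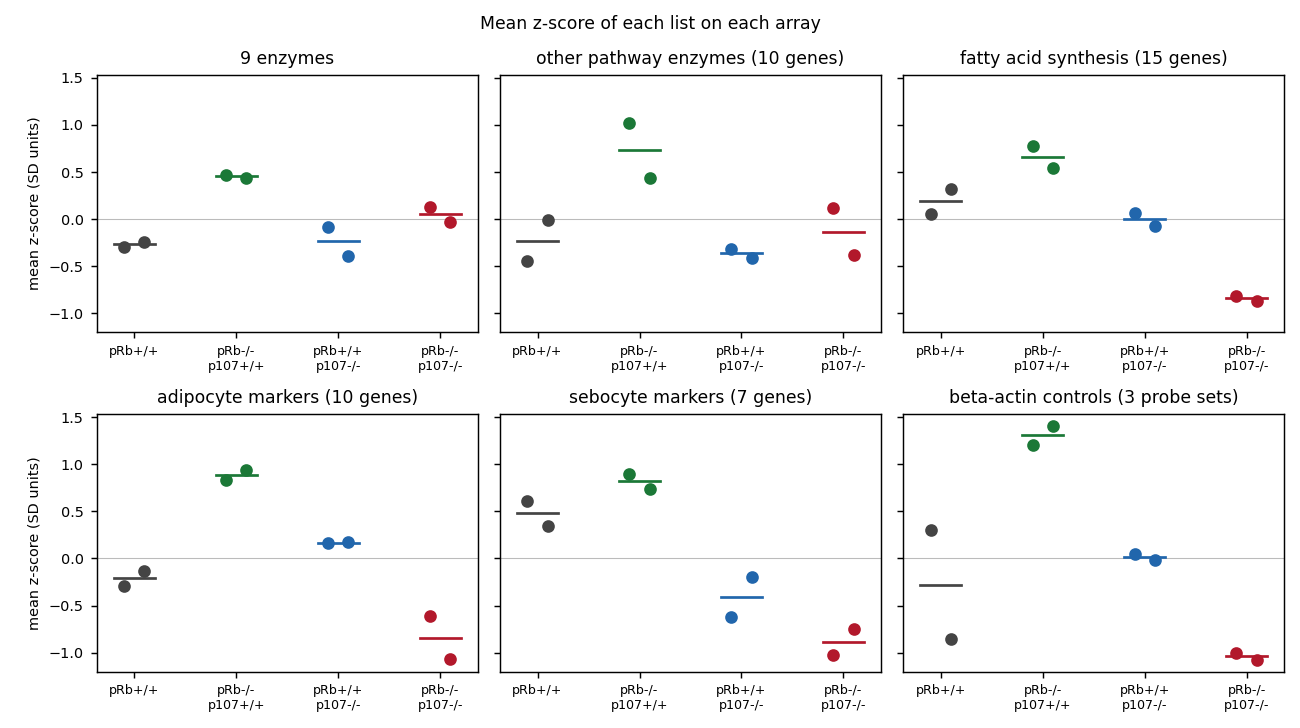
Mean z-score (SD units, vertical axis) on each array of the 9 enzymes, other enzymes of the route, fatty acid synthesis genes, adipocyte markers, sebocyte markers and the beta-actin control probe sets, by genotype. Points are arrays and bars genotype means. Every panel is highest in pRb-/-;p107+/+ skin, and the fatty acid, adipocyte, sebocyte and actin panels, unlike that of the 9 enzymes, are lowest in pRb-/-;p107-/- skin.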

How the data were processed

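The deposited values are one score per probe set and array. RMA was used, per the submitters' processing notes, with no version. The values the authors deposited are z-scores with mean 0 and SD 1 for each probe set over the 8 arrays, and the sources do not say whether log or linear values were standardized. No z-score over 8 arrays can exceed 2.47, so large differences saturate. The number of arrays limits the precision.

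Genotype means were compared in limma 3.58.1 (R 4.3.3) on 22626 probe sets (64 controls left out), with 4 residual degrees of freedom, unmoderated statistics, Benjamini-Hochberg adjustment over all probe sets and a threshold of 0.05. The script was checked on simulated data. An exact permutation test of 2 arrays against 2 cannot go below p = 0.333 and was not used. The 8 comparisons were pRb loss and p107 loss in each background, their averages, loss of both and the interaction, beside an F test.

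All 9 members and their probe sets are named. For a gene with several probe sets, names ending in _at stand before _a_at, _s_at and _x_at, then the lowest number. From other lists, genes past the threshold, or else the 2 largest differences in each direction, are named, and Srebf2 and Scap were named after their values were seen. Of the probe sets tested, 20380 had 1 symbol, 691 several and 1555 none. Members, lists and tests were chosen with earlier results of these data known. Promoters are from RefSeq, GRCm38.p6. Alternatives were the moderated test, subtracted array medians, quantile normalization, the replicate number as a block, each array left out and the mean of a gene's probe sets.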

Additional observations from a re-analysis of the deposited data

How the results depend on the processing

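Of the 43 differences of enzyme probe sets at an unadjusted p under 0.05, 0 changed sign with array medians subtracted, with quantile normalization or among the 344 values with an array left out. These 43 were picked for lying far from 0 against their standard error, so a sign change was unlikely for them. Over all differences of enzyme probe sets, 7 changed sign and 161 did not with array medians subtracted. With quantile normalization 9 changed sign and 159 did not. With an array left out 82 values changed sign, 1254 stayed the same and 8 kept their sign but lost their call. The moderated test and the replicate block leave the differences as they are, and signs of single differences were not compared for the mean of probe sets. The count of probe sets that passed moved far more. The moderated test called 0 in each comparison and in the F test. With array medians subtracted, 52 against 95 probe sets passed for p107 loss in pRb+/+ skin, 137 against 310 for p107 loss in pRb-/- skin, 2 against 58 for pRb loss in p107-/- skin, 12 against 41 for pRb loss averaged and 97 against 289 in the F test. With quantile normalization 171 passed for p107 loss in pRb-/- skin, 370 against 666 for loss of both, 0 for pRb loss averaged and 150 in the F test. The replicate numbers did not pair the samples (correlations of deviations from -0.13 to 0.11). With them as a block 1 passed for pRb loss where p107 was kept (0 without the block), 1 for p107 loss in pRb+/+ skin, 2 for p107 loss in pRb-/- skin, 0 for pRb loss in p107-/- skin, 37 for loss of both, 0 for pRb loss averaged, 34 against 687 for p107 loss averaged and 3 in the F test. With each array left out in turn the counts ran from 0 to 4 for pRb-null against control, 0 to 2 for p107-null against control, 0 to 17 for double-null against pRb-null, 0 to 2 for double-null against p107-null and 0 to 242 for double-null against control. They ran from 0 to 1 for the interaction, 0 to 2 for pRb loss averaged, 0 to 60 for p107 loss averaged and 0 to 4 in the F test. The 1 enzyme probe set past the threshold became 0 with the moderated test, the block and each array left out. For pRb loss in p107-/- skin, from 7 to 11 enzyme probe sets were positive with an array left out, and 3 against 5 of the 9 enzymes with the mean of all probe sets of a gene. Chosen after seeing the data, the 13 and 6 enzyme probe sets without overlap for p107 loss in pRb-/- skin and for p107 loss averaged stayed 13 and 6 under both scalings, and 13 of the 17 other probe sets were negative without Hmgcs1.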
